A study of Mus musculus with 6 samples.

Results

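The genes described here carry glucose into the cell, turn it into pyruvate, and send pyruvate on to lactate or into the mitochondrion. They were listed by function as the transporters of glucose and lactate, the enzymes of glycolysis other than the phosphoglycerate mutases, and the genes through which pyruvate enters oxidation, and they were put in order around the step that phosphoglycerate mutase (PGAM) carries out. The list holds 36 of the 56748 genes in the deposited count table, 19 above the PGAM step and 17 below it. All 36 were found by symbol, and all 36 were among the 14936 genes with enough counts to be tested.

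The counts come from RNA sequencing of 6 cultures of unsorted CD4 T cells from wild-type mice. In its methods the study used C57BL/6J mice and naïve CD4 cells of spleen and lymph nodes, while the labels name splenocytes as the source. The cultures were kept for 3 days under Treg polarizing conditions, meaning stimulation through CD3 and CD28 with IL-2, TGF-β and antibodies that block IFNγ and IL-4. From the start, 3 cultures received a scrambled antisense oligonucleotide (ASO) and the other 3 received *Pgam* ASO, a synthetic strand meant to bind the RNA for PGAM. The comparison asks how RNA for the rest of glycolysis differs between the labels. Depth by replicate 1, 2 and 3 was 17588755, 18032805 and 16231127 total counts for scrambled ASO and 16589933, 15860476 and 16803881 for *Pgam* ASO. The paper speaks of 3 biological replicates for this sequencing. Neither labels nor paper say which animals the cultures came from, so p-values measure the spread between these samples only. In unsorted cultures, fewer cells of a type and less RNA per cell cannot be told apart.

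Glycolysis splits glucose into triose phosphates, which GAPDH and PGK turn into 3-phosphoglycerate. PGAM moves the phosphate group to the neighbouring carbon, and enolase and pyruvate kinase then make pyruvate. Intermediates above the PGAM step can leave for the making of serine, glycerol and pentoses, whereas pyruvate below it is either reduced to lactate and exported or carried into mitochondria. Activated T cells raise glucose uptake and lactate output, and Tregs are known to lean more on oxidation in mitochondria than effector T cells do.

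The targeted RNAs come first. *Pgam1*, the main PGAM gene of lymphocytes, had a level of 599.6, 478 and 707 CPM (counts-per-million, scaled by edgeR's TMM method) for replicates 1, 2 and 3 under scrambled ASO and of 658, 661 and 707 CPM under *Pgam* ASO. Values of a gene below keep this order of replicates, although their numbers rank nothing. The labels overlap, and edgeR's log2 fold change, here and below *Pgam* ASO over scrambled ASO, was 0.18 (95% confidence interval -0.10 to 0.46, adjusted p = 0.331). With a library left out it ran from 0.047 without replicate 2 labelled scrambled ASO to 0.33 without replicate 3 labelled scrambled ASO. *Pgam2*, the muscle form, was at 5.23, 6.75 and 2.85 CPM against 2.98, 2.69 and 2.60 CPM, with a log2 fold change of -0.84 (95% confidence interval -1.54 to -0.15, adjusted p = 0.0854). Replicate 3 labelled scrambled ASO sits among the libraries of the other label for *Pgam2*. Leaving it out gave *Pgam2* -1.11 on the log2 scale (adjusted p = 0.0144), and it also passed with a filter of at least 1 count over the 6 libraries (adjusted p = 0.0292). The other left-out libraries did not give a pass, with *Pgam2* weakest at -0.56 without replicate 2 labelled scrambled ASO (adjusted p = 0.286). Neither targeted RNA passed an adjusted p of 0.05 in the main fit, so the groups are called by their labels. The counts hold RNA only, and PGAM1 protein, which the paper measured by flow cytometry, is not in them.

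Markers of CD4 T cells were present in every library. The 6 genes *Cd3d*, *Cd3e*, *Cd3g*, *Cd4*, *Trac* and *Lck* summed to 2265, 2394 and 2141 CPM in the libraries labelled scrambled ASO and to 1896, 1962 and 2106 CPM in those labelled *Pgam* ASO, with *Cd4* counted most and *Trac*, the constant region of the receptor's alpha chain, lower (log2 fold change -0.30, adjusted p = 0.0416). Of the 4 Treg genes, *Il2ra* was higher (log2 fold change 0.52, adjusted p = 0.0185), and *Foxp3* (log2 fold change -1.41, adjusted p = 0.00567) and *Ikzf2* (log2 fold change -0.57, adjusted p = 0.0484) were lower, so 3 of these 4 genes passed. *Foxp3*, the defining factor of Tregs, stood at 282, 371 and 222 CPM against 89.7, 109 and 131 CPM.

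Other cell types left low levels. The 2 CD8 genes summed to 11.3, 13.5 and 10.8 CPM against 14.6, 10.9 and 15.7 CPM, with *Cd8b1* counted most and not passing (log2 fold change -0.20, adjusted p = 0.454) and *Cd8a* higher (log2 fold change 1.12, adjusted p = 0.0286). For B cells, 5 of 5 markers were tested and 0 passed, at sums of 9.28, 11.6 and 6.63 CPM against 9.75, 8.92 and 7.87 CPM, led by *Cd79a*. Of 7 myeloid markers 4 were tested and 0 passed, at sums of 5.68, 4.70 and 2.73 CPM against 6.46, 4.88 and 5.09 CPM, led by *Lyz2*. These lists had no marker at 0 in every library, and a count of 0 allows for up to 3 counts in a library, counting error only. The NK list summed to 52.7, 32.7 and 55.1 CPM against 28.4, 27.1 and 24.4 CPM, nearly all of it *Eomes*, which activated T cells also express and which was lower (log2 fold change -0.82, adjusted p = 0.0214), while the defining marker *Klrb1c* was at 0. Erythroid genes summed to 2.70, 2.16 and 1.55 CPM against 1.55, 2.12 and 2.49 CPM, with *Alas2* leading, 2 of 5 tested, 0 called and *Hba-a2* at 0. Mast cell and basophil genes summed to 1.07, 1.89 and 1.36 CPM against 4.10, 3.98 and 2.96 CPM, led by *Cpa3*, with 1 of 5 tested, 0 called and *Mcpt4* at 0. The part of these cells and of the Treg marker difference in the results below was not tested.

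Few of the 36 genes passed the test, in a share near that of all tested genes. An adjusted p under 0.05 was reached by 5 of the 36 genes, or 13.9%, beside 17.2% of all tested genes. *Slc2a6*, *Tigar* and *Slc16a1* were higher, which is 3 of 36 beside 8.03% of all tested genes, and *Eno2* and *Pdk2* were lower, which is 2 of 36 beside 9.15%. For 11 of 36 genes, or 30.6%, the libraries kept apart by label with no overlap, beside 39.5% of all tested genes. Of these, 7 were higher in every library labelled *Pgam* ASO, beside 19.6% of all tested genes, and 4 were lower, beside 19.8%. The shares of glycolysis genes in the main fit lie near or under those of all tested genes and are no result about glycolysis.

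In the main fit the medians above and below the PGAM step lay close to each other. Above it, 2 of 19 genes passed (10.5%), both higher, and below it 3 of 17 passed (17.6%), 1 higher and 2 lower. The median log2 fold change was 0.065 above the step and 0.064 below it, beside -0.0061 over all tested genes. With limma-voom they were 0.12 and 0.075, and with a library left out they ran from -0.026 to 0.16 above the step and from -0.0055 to 0.16 below it. In size, the median absolute log2 fold change over all 36 genes was 0.15, beside 0.27 over all tested genes. The log2 fold change was under 0.25 in absolute size for 25 of 36 genes, among them the abundant enzymes *Aldoa*, *Tpi1*, *Pgk1*, *Eno1*, *Pkm* and *Ldha*. For 23 genes the 95% confidence interval lay wholly within 0.5 of no change on the log2 scale, and for 28 genes within 1. Those intervals bound what these libraries leave room for, and they do not show that the labels are alike.

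**Figure D1:**
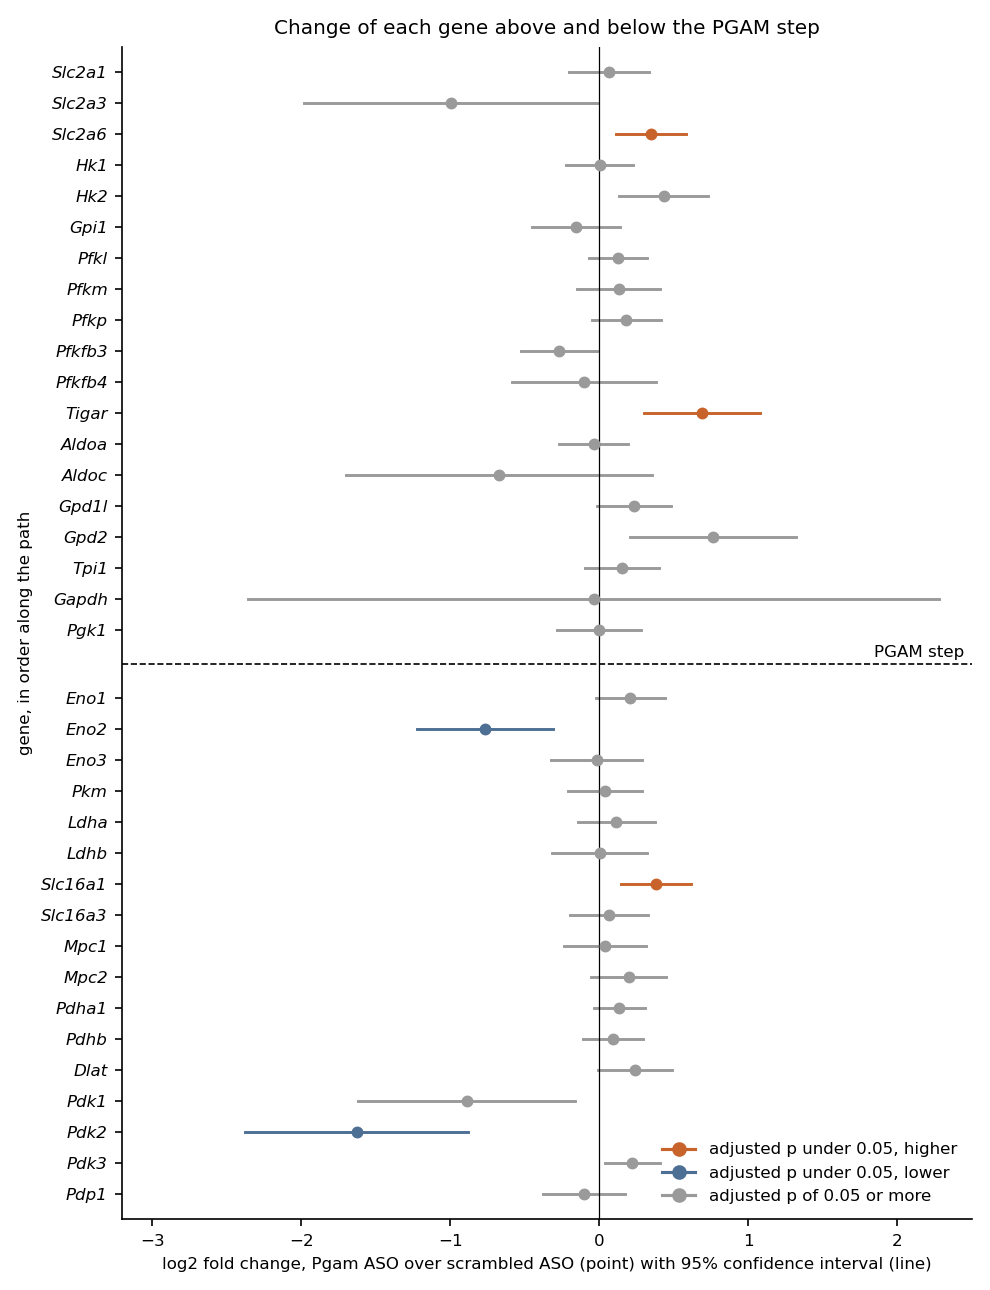
Log2 fold change of *Pgam* ASO over scrambled ASO (points) with 95% confidence interval (lines) for the 36 genes in order along the path, coloured where the adjusted p is under 0.05. The 3 genes called higher stand on both sides of the dashed PGAM line and the 2 called lower stand below that step, and the interval of *Gapdh* is the widest.

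The libraries within a label were not alike for these genes. Among the 11 genes whose labels do not overlap, replicate 3 labelled *Pgam* ASO is the library of its label nearest to the scrambled ASO libraries in 11 of 11, beside 61.2% of all such genes in the table. Replicate 3 labelled scrambled ASO is the nearest from the other side in 8 of 11, beside 61.1%. Across all 36 genes, replicate 2 labelled scrambled ASO is the lowest of the 6 libraries in 20 genes (55.6%), beside 29.7% of all tested genes, and replicate 1 labelled *Pgam* ASO in 13 genes (36.1%), beside 25.4%. Together the 36 genes held 1.83%, 1.66% and 2.08% of all counts under scrambled ASO and 1.67%, 1.86% and 2.08% under *Pgam* ASO, so the share varied as much within a label as between them. When each library was left out in turn, the calls moved with it. Without replicate 3 labelled *Pgam* ASO 10 of the 36 genes passed (27.8%), 4 higher and 6 lower, beside 21.5% of all genes tested in that fit. Without replicate 1 or replicate 2 labelled *Pgam* ASO 0 passed, beside 5.60% and 2.51%, and without replicate 1 or replicate 2 labelled scrambled ASO only *Pdk2* did, beside 4.02% and 8.22%. Without replicate 3 labelled scrambled ASO 7 passed (19.4%), 5 higher and 2 lower, beside 22.5%. Calls over the whole table thus moved in the same way.

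Glucose enters through the GLUT carriers, and 1 of the 3 listed genes passed. *Slc2a3* codes for GLUT3, a carrier with high affinity for glucose, and per kilobase of transcript it was the most abundant of the 3 carriers under scrambled ASO, while in replicate 1 labelled *Pgam* ASO *Slc2a1* lay above it. *Slc2a3* stood at 489.8, 496 and 552 CPM in the libraries labelled scrambled ASO and at 126, 243 and 401 CPM in those labelled *Pgam* ASO, so the labels do not overlap and replicate 1 labelled *Pgam* ASO is far under the rest. Its log2 fold change was -0.996 (95% confidence interval -1.98 to -0.0082, adjusted p = 0.141). Leaving out replicate 3 labelled *Pgam* ASO gave *Slc2a3* a log2 fold change of -1.47 with an adjusted p of 0.0142, and without replicate 1 it was -0.67 with an adjusted p of 0.0675. With limma-voom on all libraries it passed at -1.15 (adjusted p = 0.0372). The remaining left-out fits and settings did not give *Slc2a3* a pass, with adjusted p up to 0.360 and 0.366.

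*Slc2a6* (ENSMUSG00000036067, chromosome 2, 27021363 to 27027998) codes for GLUT6, a hexose carrier found on membranes inside the cell. Its level was 28.4, 28.6 and 26.8 CPM under scrambled ASO against 37.8, 37.0 and 31.8 CPM under *Pgam* ASO, with a log2 fold change of 0.35 (95% confidence interval 0.11 to 0.58, adjusted p = 0.0464). All libraries of *Pgam* ASO lie above all of scrambled ASO, by a small margin. The call of *Slc2a6* was lost without any library other than replicate 3 labelled *Pgam* ASO, with adjusted p from 0.0807 to 0.172, while the log2 fold change kept between 0.30 and 0.43. It was also lost with limma-voom (adjusted p = 0.0523) and with library size alone (adjusted p = 0.062). *Slc2a1*, coding for the main T cell carrier GLUT1, lay between 179 and 231 CPM under scrambled ASO and between 182 and 237 CPM under *Pgam* ASO, with a log2 fold change of 0.065 (95% confidence interval -0.20 to 0.34, adjusted p = 0.738).

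Hexokinases trap glucose as glucose-6-phosphate. *Hk1*, the more abundant per kilobase, was at 375, 341 and 385 CPM against 329.7, 355 and 416 CPM, and the labels overlap around the same mean, 367 ± 23.1 against 367 ± 44.5 CPM (SD, n = 3). This gave a log2 fold change of 0.0011 (95% confidence interval -0.22 to 0.23, adjusted p = 0.995). *Hk2*, the form that activation of T cells induces, was at 199, 156 and 237 CPM against 278, 269 and 252 CPM. The labels do not overlap for *Hk2*, and the log2 fold change of 0.43 (95% confidence interval 0.13 to 0.73, adjusted p = 0.0507) misses the threshold by little. It passed with DESeq2 (adjusted p = 0.0177), with limma-voom (adjusted p = 0.0464) and with the filter of at least 1 count over the 6 libraries (adjusted p = 0.000227). When replicate 3 labelled scrambled ASO was left out it was 0.59 with an adjusted p of 0.00898, and without replicate 2 labelled scrambled ASO it was 0.29 with an adjusted p of 0.0869. *Hk2* did not pass in the remaining left-out fits and settings, with adjusted p up to 0.158 and 0.0761. *Hk2*, *Gpd2*, *Aldoc* and *Pdk3* are given in every library because of how their values lay, a choice made after these were seen.

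**Figure D2:**
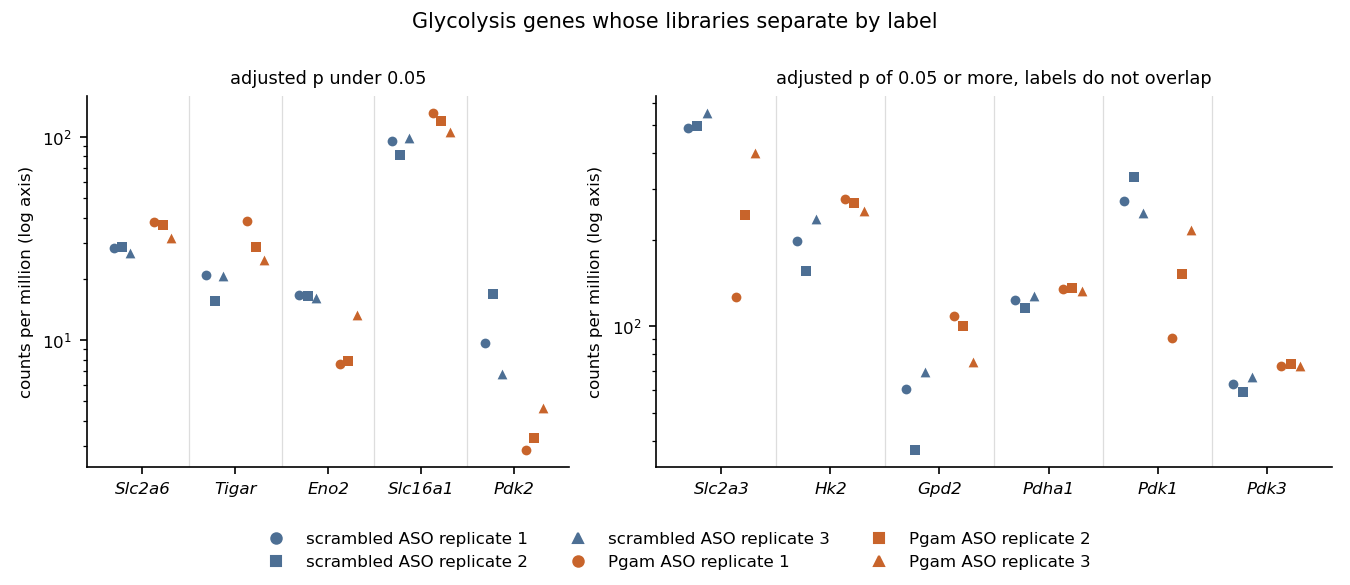
Level in CPM (log axis) in each library for the 5 genes with an adjusted p under 0.05 (left) and for the other 6 genes whose labels do not overlap (right). Blue marks the 3 libraries labelled scrambled ASO and orange the 3 labelled *Pgam* ASO, and in all 11 genes replicate 3 labelled *Pgam* ASO (orange triangle) is the nearest of its label to the blue points.

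Glucose-6-phosphate isomerase, from *Gpi1*, makes fructose-6-phosphate. The gene stood at 1046, 1074 and 1099.8 CPM under scrambled ASO and 774, 938 and 1180.0 CPM under *Pgam* ASO, with replicate 1 labelled *Pgam* ASO lowest of all libraries and replicate 3 labelled *Pgam* ASO highest. For *Gpi1* the log2 fold change was -0.16 (95% confidence interval -0.45 to 0.14, adjusted p = 0.436), and without replicate 3 labelled *Pgam* ASO it was -0.32 with an adjusted p of 0.0572, while without replicate 1 labelled *Pgam* ASO it was -0.016 with an adjusted p of 0.945. Kallisto divides reads between transcripts that share sequence, and the pseudogene *Gm1840* shares 31-base stretches with *Gpi1*. That copy held at most 0.247% of the counts summed over both.

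Phosphofructokinase catalyses the first step that commits sugar to glycolysis. *Pfkp*, its most abundant subunit per kilobase, stood at 547, 516 and 595 CPM against 545, 641 and 695 CPM, and replicate 1 labelled *Pgam* ASO falls within the range under scrambled ASO. For *Pfkp* the log2 fold change was 0.18 (95% confidence interval -0.048 to 0.41, adjusted p = 0.239), and with a library left out it ran from 0.11 without replicate 3 labelled *Pgam* ASO to 0.28 without replicate 1 labelled *Pgam* ASO. The other subunits, *Pfkl* and *Pfkm*, had log2 fold changes of 0.13 and 0.13 with adjusted p of 0.332 and 0.496, and their labels overlap. Leaving out replicate 2 labelled scrambled ASO gave *Pfkl* 0.068. None of the 3 subunits passed.

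The activator of phosphofructokinase, fructose 2,6-bisphosphate made by PFKFB enzymes, is removed by phosphatases. *Tigar* (ENSMUSG00000038028, chromosome 6, 127085116 to 127109557) codes for such a phosphatase, which is known to send sugar from glycolysis toward the pentose phosphate pathway. It was counted at 20.8, 15.6 and 20.5 CPM under scrambled ASO and at 38.4, 28.7 and 24.7 CPM under *Pgam* ASO. Every library labelled *Pgam* ASO lies above every library labelled scrambled ASO, with replicate 1 labelled *Pgam* ASO highest. The log2 fold change of 0.69 (95% confidence interval 0.30 to 1.08, adjusted p = 0.0277) was the largest rise among the genes that passed. Without any 1 library it was between 0.50 and 0.83. The call of *Tigar* was lost without replicate 1 labelled *Pgam* ASO (adjusted p = 0.0909), without replicate 2 labelled *Pgam* ASO (adjusted p = 0.0935), and without replicates 1 or 2 labelled scrambled ASO (adjusted p of 0.0712 and 0.0703).

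*Pfkfb3* and *Pfkfb4*, which make the activator, did not pass. *Pfkfb3* lay between 84.8 and 94.3 CPM under scrambled ASO and between 64.3 and 88.1 CPM under *Pgam* ASO, with a log2 fold change of -0.27 (95% confidence interval -0.53 to -0.016, adjusted p = 0.123). It passed only when replicate 3 labelled *Pgam* ASO was left out, at -0.40 with an adjusted p of 0.0242, and it had -0.17 without replicate 1 of that label. *Pfkfb4* was the least abundant of the 36 genes per kilobase over both labels, though not under *Pgam* ASO alone. It had a log2 fold change of -0.11 (95% confidence interval -0.59 to 0.38, adjusted p = 0.764).

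Aldolase splits the sugar into triose phosphates. *Aldoa*, the abundant form, stood at 1960.1, 1784 and 2177 CPM against 1764, 1834 and 2166 CPM, and the labels overlap throughout, with a log2 fold change of -0.039 (95% confidence interval -0.27 to 0.19, adjusted p = 0.819). *Aldoc* behaved otherwise. It was at 90.03, 87.3 and 94.98 CPM under scrambled ASO, a narrow range, and at 26.2, 54.0 and 90.2 CPM under *Pgam* ASO. Replicate 3 labelled *Pgam* ASO lies inside the range under scrambled ASO, and replicate 1 lies lowest. The log2 fold change of *Aldoc* was -0.67 (95% confidence interval -1.70 to 0.35, adjusted p = 0.307), and without replicate 3 labelled *Pgam* ASO it was -1.17 with an adjusted p of 0.0326. Without replicate 1 labelled *Pgam* ASO it was -0.33 with an adjusted p of 0.292.

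At the triose phosphates a branch leads to glycerol phosphate. *Gpd2*, whose mitochondrial enzyme passes electrons from glycerol phosphate to the respiratory chain, stood at 60.5, 37.0 and 69.4 CPM under scrambled ASO and 108, 99.9 and 75.0 CPM under *Pgam* ASO. The labels do not overlap, and replicate 2 labelled scrambled ASO is the lowest. Its log2 fold change of 0.76 (95% confidence interval 0.21 to 1.32, adjusted p = 0.0649) was the highest of the 36 genes, without passing. It passed without replicate 3 labelled scrambled ASO (0.96, adjusted p = 0.0378) and without replicate 3 labelled *Pgam* ASO (0.91, adjusted p = 0.0387), but not in the other 4 left-out fits, with log2 fold changes down to 0.54 and adjusted p up to 0.183. It also passed with DESeq2 (adjusted p = 0.00276), limma-voom (adjusted p = 0.0356) and the filter of at least 1 count (adjusted p = 0.0152). *Gpd1l*, whose cytosolic enzyme also acts on glycerol phosphate, had a log2 fold change of 0.23 (95% confidence interval -0.017 to 0.48, adjusted p = 0.170). *Tpi1*, which turns the triose phosphates into each other, stood at 1084, 946 and 1288 CPM against 1164, 1223 and 1302 CPM, with replicate 3 labelled scrambled ASO inside the range under *Pgam* ASO and a log2 fold change of 0.15 (95% confidence interval -0.094 to 0.40, adjusted p = 0.359). Left-out libraries moved *Tpi1* from 0.051 without replicate 2 labelled scrambled ASO to 0.28 without replicate 3 labelled scrambled ASO.

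*Gapdh* (ENSMUSG00000057666, chromosome 6, 125161715 to 125166467), often used as a reference gene, had the least even counts of the 36 genes. Its counts were 3382, 823 and 9103 under scrambled ASO and 2346, 4855 and 5419 under *Pgam* ASO, or 190.3, 44.4 and 564 CPM and 146, 312 and 321 CPM. The lowest and the highest library both carry the label scrambled ASO, and the log2 fold change of -0.037 (95% confidence interval -2.36 to 2.28, adjusted p = 0.982) leaves both a large rise and a large fall possible. Leaving out replicate 3 labelled scrambled ASO gave 1.15 (adjusted p = 0.387). Other genes hold 28.1% of the 31-base stretches of *Gapdh* transcripts, and 49 genes each hold at least 10%. These copies summed to 3045, 2509 and 3044 counts under scrambled ASO and 2588, 2668 and 3159 under *Pgam* ASO, and the most counted was *Gm7336*. They held from 25.1% of the summed counts in replicate 3 labelled scrambled ASO to 75.3% in replicate 2 labelled scrambled ASO. Summed with its copies, *Gapdh* had a log2 fold change of 0.0033 (adjusted p = 0.997). The copies vary less between libraries than the gene does, and where reads of *Gapdh* went in replicate 2 labelled scrambled ASO was not tested. Whether *Gapdh* RNA itself varied as its counts did was not tested either.

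*Pgk1*, whose enzyme yields 3-phosphoglycerate just above the PGAM step, stood at 1995, 1703 and 2297 CPM under scrambled ASO and at 1716, 1996 and 2272 CPM under *Pgam* ASO. Both labels spread over nearly the same range. They give a log2 fold change of -0.0029 (95% confidence interval -0.29 to 0.28, adjusted p = 0.9899). *Pgk1* shares 54.7% of its 31-base stretches, mostly with the copy *Pgk1-rs7*, yet the copies known to GENCODE M21 held at most 0.737% of the summed counts.

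Around the PGAM step, levels can be set side by side per kilobase of mean coding transcript. *Pgk1* was at 1095 ± 163 CPM per kilobase in the libraries labelled scrambled ASO and at 1093 ± 152 in those labelled *Pgam* ASO (SD, n = 3). *Pgam1* was at 335 ± 64.7 against 381 ± 15.4 CPM per kilobase, and *Eno1*, the next enzyme, at 2359 ± 313 against 2722 ± 179. *Pgam1* thus had the lowest RNA level of these 3 neighbours under both labels, by more than their spread between libraries. The length was the mean over annotated coding transcripts, 1 for *Pgk1*, 1 for *Pgam1* and 5 for *Eno1*. That spread leaves out error in these lengths, and the same holds for the other orders per kilobase. Over both labels, among the 36 genes, *Pkm* led with 3149 and 3228 CPM per kilobase under scrambled ASO and *Pgam* ASO, followed by *Ldha* with 2496 and 2701, *Eno1*, *Aldoa* with 1889 and 1839, and *Pgk1*. The lowest over both labels was *Pfkfb4* with 2.43 and 2.26 CPM per kilobase, while under *Pgam* ASO *Pdk2* was lower, at 1.59. *Eno1* and *Ldha*, neighbours in that order, do not differ beyond their spread.

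**Figure D3:**
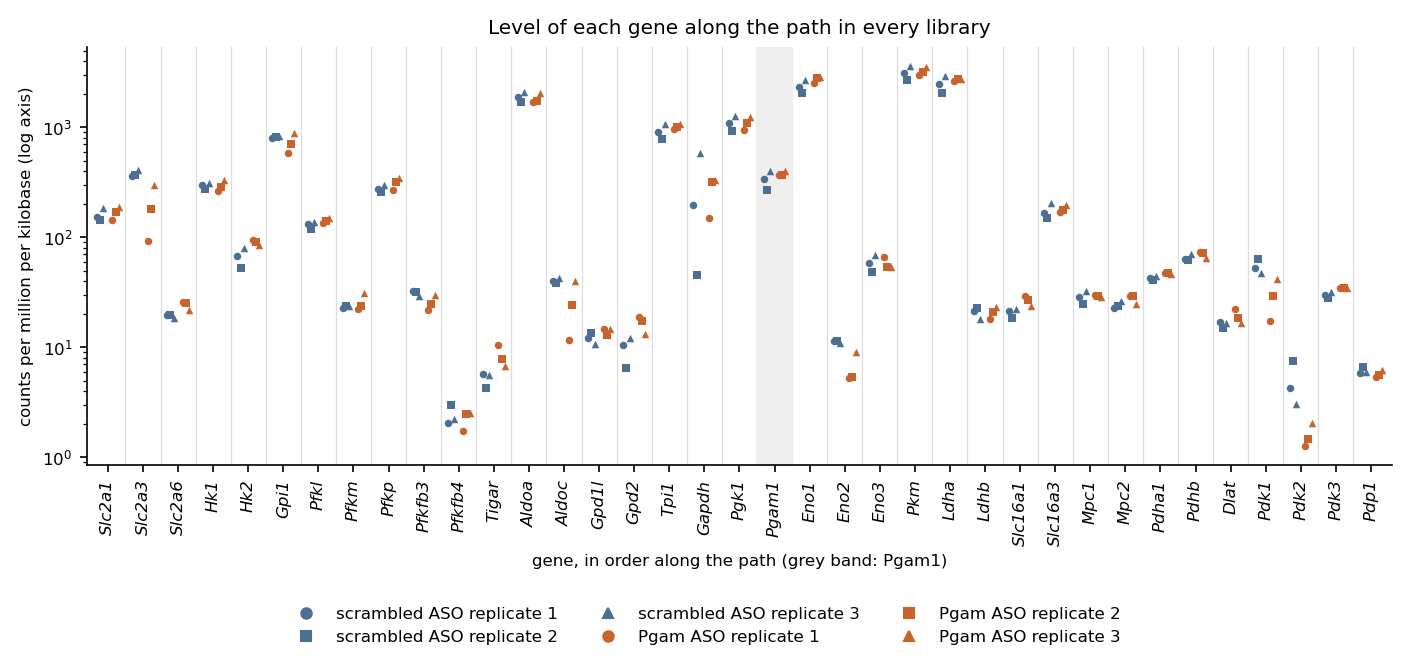
Level in CPM per kilobase of mean coding transcript (log axis) in each library for the 36 genes in order along the path, with *Pgam1* in the grey band. Blue and orange marks of abundant enzymes, such as *Pkm*, *Eno1* and *Aldoa*, lie within a narrow range, while *Gapdh* spreads widely.

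Below the step, enolase makes phosphoenolpyruvate. *Eno1*, the common form, stood at 2583, 2301 and 2993 CPM under scrambled ASO and 2805, 3105 and 3181 CPM under *Pgam* ASO. Replicate 3 labelled scrambled ASO lies inside the range under *Pgam* ASO, and the log2 fold change was 0.21 (95% confidence interval -0.024 to 0.44, adjusted p = 0.185). Without that library *Eno1* passed, at 0.31 with an adjusted p of 0.0359, while without replicate 2 labelled scrambled ASO it had 0.12. The related *Eno1b* and another copy held 2.51% to 2.74% of the counts summed with *Eno1*. *Eno3*, the muscle form, lay between 45.5 and 64.7 CPM under scrambled ASO and between 49.6 and 62.0 CPM under *Pgam* ASO, with a log2 fold change of -0.018 (95% confidence interval -0.32 to 0.29, adjusted p = 0.942).

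*Eno2* (ENSMUSG00000004267, chromosome 6, 124760053 to 124769673) codes for the enolase of neurons, which other cells also express at low levels. Its level was 16.5, 16.5 and 15.99 CPM under scrambled ASO, the narrowest range of the 5 genes that passed, and 7.64, 7.83 and 13.3 CPM under *Pgam* ASO. The labels do not overlap, and replicate 3 labelled *Pgam* ASO is nearest to the other label. This is a log2 fold change of -0.77 (95% confidence interval -1.23 to -0.31, adjusted p = 0.0330). Without replicate 3 labelled *Pgam* ASO it was -1.07 with an adjusted p of 0.00303, and the call of *Eno2* was lost without replicate 1 or 2 labelled *Pgam* ASO (adjusted p of 0.106 and 0.141) and without replicate 1 or 2 labelled scrambled ASO (adjusted p of 0.1001 and 0.0664). Across the 9 other settings tried, *Eno2*, *Tigar* and *Pdk2* each passed in 9.

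Pyruvate kinase and lactate dehydrogenase act on the end of the path. *Pkm* was at 3204, 2781 and 3713 CPM against 3051, 3287 and 3602 CPM, and the range under *Pgam* ASO lies inside the range under scrambled ASO. Its log2 fold change was 0.036 (95% confidence interval -0.21 to 0.28, adjusted p = 0.847), and its copies held 3.36% to 4.26% of the summed counts. *Ldha*, whose subunit favours making lactate, was at 2435, 2029.8 and 2883 CPM against 2594, 2681 and 2679 CPM. Again the range under *Pgam* ASO lies inside the other, and the log2 fold change was 0.11 (95% confidence interval -0.14 to 0.37, adjusted p = 0.514). *Ldhb*, the subunit of oxidative tissues, was far lower per kilobase, at 20.7 against 2496 CPM per kilobase for *Ldha* under scrambled ASO. It stood at 18.3, 19.2 and 15.3 CPM against 15.2, 17.8 and 19.8 CPM, with overlap and a log2 fold change of 0.00069 (95% confidence interval -0.32 to 0.32, adjusted p = 0.998). Its copy *Gm5514* held at most 2.11% of the summed counts.

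Lactate leaves through monocarboxylate carriers. *Slc16a1* (ENSMUSG00000032902, chromosome 3, 104638668 to 104658462) codes for MCT1, which moves lactate and pyruvate either way. It stood at 95.2, 81.1 and 98.0 CPM under scrambled ASO and at 131, 119.7 and 106 CPM under *Pgam* ASO. All libraries labelled *Pgam* ASO are higher, replicate 3 by the least. In edgeR the log2 fold change was 0.38 (95% confidence interval 0.14 to 0.61, adjusted p = 0.0366). It lay between 0.30 and 0.46 with libraries left out, and the call of *Slc16a1* was lost without replicates 1 or 2 of either label, with adjusted p from 0.0903 to 0.134. *Slc16a3*, coding for the export carrier MCT4 and more abundant per kilobase, stood at 315, 283 and 387 CPM against 324, 333 and 373 CPM. Its range under *Pgam* ASO falls inside that under scrambled ASO, with a log2 fold change of 0.064 (95% confidence interval -0.20 to 0.33, adjusted p = 0.735).

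Pyruvate that is not reduced passes the mitochondrial carrier and the pyruvate dehydrogenase complex. None of the 5 genes listed for this entry passed, with log2 fold changes from 0.036 to 0.24. *Mpc1*, a carrier subunit, was at 20.9, 18.2 and 23.5 CPM against 21.9, 21.4 and 20.9 CPM, a range under *Pgam* ASO inside the range under scrambled ASO, with a log2 fold change of 0.036 (95% confidence interval -0.24 to 0.31, adjusted p = 0.861). Its copies held 58.4% to 63.9% of the counts summed with it. *Pdha1*, the regulated subunit of the complex, was at 123, 116 and 128 CPM against 135, 135 and 132 CPM. Those ranges do not overlap by a small margin, and the log2 fold change was 0.13 (95% confidence interval -0.039 to 0.31, adjusted p = 0.248), with *Map3k15*, which shares stretches with it, at 1.17% to 3.77% of the sum. *Pdhb* was at 96.0, 94.5 and 108 CPM against 112, 108 and 97.9 CPM, overlapping, with a log2 fold change of 0.093 (95% confidence interval -0.11 to 0.29, adjusted p = 0.497) and a copy at up to 1.19% of the sum. Left-out libraries moved *Pdhb* from 0.053 without replicate 1 labelled *Pgam* ASO to 0.16 without replicate 3 labelled scrambled ASO. *Mpc2* and *Dlat* had log2 fold changes of 0.20 and 0.24 with adjusted p of 0.244 and 0.160.

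The kinases that switch pyruvate dehydrogenase off include the gene with the largest change of the list. *Pdk2* (ENSMUSG00000038967, chromosome 11, 95026258 to 95041354) was counted 171, 311 and 110 times under scrambled ASO and 46, 51 and 78 times under *Pgam* ASO, or at 9.62, 16.8 and 6.82 CPM against 2.86, 3.27 and 4.62 CPM. Every library labelled *Pgam* ASO lies under every library labelled scrambled ASO, and the spread under scrambled ASO is wide, with replicate 2 highest. The log2 fold change of -1.63 (95% confidence interval -2.38 to -0.88, adjusted p = 0.0147) is the largest drop of the 36 genes, in an RNA of low level. Without replicate 2 labelled scrambled ASO *Pdk2* still passed, at -1.20 with an adjusted p of 0.0224. It missed the threshold without replicate 1 labelled *Pgam* ASO (-1.49, adjusted p = 0.053) and without replicate 2 labelled *Pgam* ASO (-1.57, adjusted p = 0.0827). Leaving out replicate 1 labelled *Pgam* ASO gave *Dlat* 0.12.

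*Pdk1*, a kinase of the same family induced by low oxygen and under scrambled ASO the most abundant of them per kilobase, was at 274, 330.4 and 248 CPM under scrambled ASO and at 90.9, 152 and 216 CPM under *Pgam* ASO. The labels do not overlap, replicate 1 labelled *Pgam* ASO is lowest, and replicate 3 labelled *Pgam* ASO comes closest to the other label. For *Pdk1* the log2 fold change was -0.89 (95% confidence interval -1.62 to -0.16, adjusted p = 0.0894). *Pdk1* passed at -1.22 without replicate 3 labelled *Pgam* ASO, with an adjusted p of 0.0108, and limma-voom on all libraries gave -0.97 with an adjusted p of 0.0319. It did not pass in the other 5 left-out fits, with -0.62 without replicate 1 labelled *Pgam* ASO (adjusted p = 0.0587) and adjusted p up to 0.325, or in any other setting on all libraries. *Pdk3* lay the other way, at 62.9, 59.0 and 66.8 CPM against 73.0, 73.8 and 72.8 CPM without overlap, with a log2 fold change of 0.22 (95% confidence interval 0.036 to 0.40, adjusted p = 0.0899). The phosphatase gene *Pdp1*, which switches the complex on, lay between 16.1 and 18.2 CPM under scrambled ASO and between 14.7 and 17.0 CPM under *Pgam* ASO, with a log2 fold change of -0.10 (95% confidence interval -0.38 to 0.17, adjusted p = 0.588). With a library left out *Pdp1* ran from -0.16 without replicate 3 labelled *Pgam* ASO to -0.045 without replicate 2 labelled scrambled ASO.

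Within families of related genes, the balance between members was compared in each library as a log2 ratio of CPM per kilobase, over 12 pairs. With 3 libraries against 3 the exact permutation test, two-sided, cannot go below 0.1, so no pair could pass 0.05. The labels do not overlap for 4 of the 12 pairs, and since 39.5% of single tested genes also keep apart, that count is no result about these pairs. *Slc2a1* over *Slc2a3* was -1.24, -1.36 and -1.15 under scrambled ASO and 0.63, -0.10 and -0.66 under *Pgam* ASO, a difference in log2 ratio of 1.21. *Pdk3* over *Pdk1* was -0.83, -1.19 and -0.60 against 0.98, 0.25 and -0.28, a difference of 1.19. In these pairs the less abundant carrier and kinase under scrambled ASO came near or passed the other in replicates 1 and 2 under *Pgam* ASO and stayed under it in replicate 3. *Eno2* over *Eno1* was -7.66, -7.50 and -7.92 against -8.90, -9.01 and -8.28, a difference of -1.03, and *Aldoc* over *Aldoa* was -5.55, -5.46 and -5.62 against -7.18, -6.19 and -5.69, a difference of -0.81 that was -0.40 without replicate 1 labelled *Pgam* ASO and -1.14 without replicate 3 labelled *Pgam* ASO. Each of these 4 had an exact permutation p of 0.1, or 0.3 after Benjamini-Hochberg adjustment over the 12 pairs. The other 8 pairs overlap, with differences from -0.30 for *Slc16a3* over *Slc16a1* to 0.59 for *Pdk1* over *Pdk2*. With a library left out the first ran from -0.44 to -0.19 and the last from 0.35 to 0.80. Labels did not overlap for 8 pairs without replicate 3 labelled *Pgam* ASO and for 7 without replicate 3 labelled scrambled ASO. With fewer libraries the labels keep apart more easily, so those counts are no result about these pairs either.

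**Figure D4:**
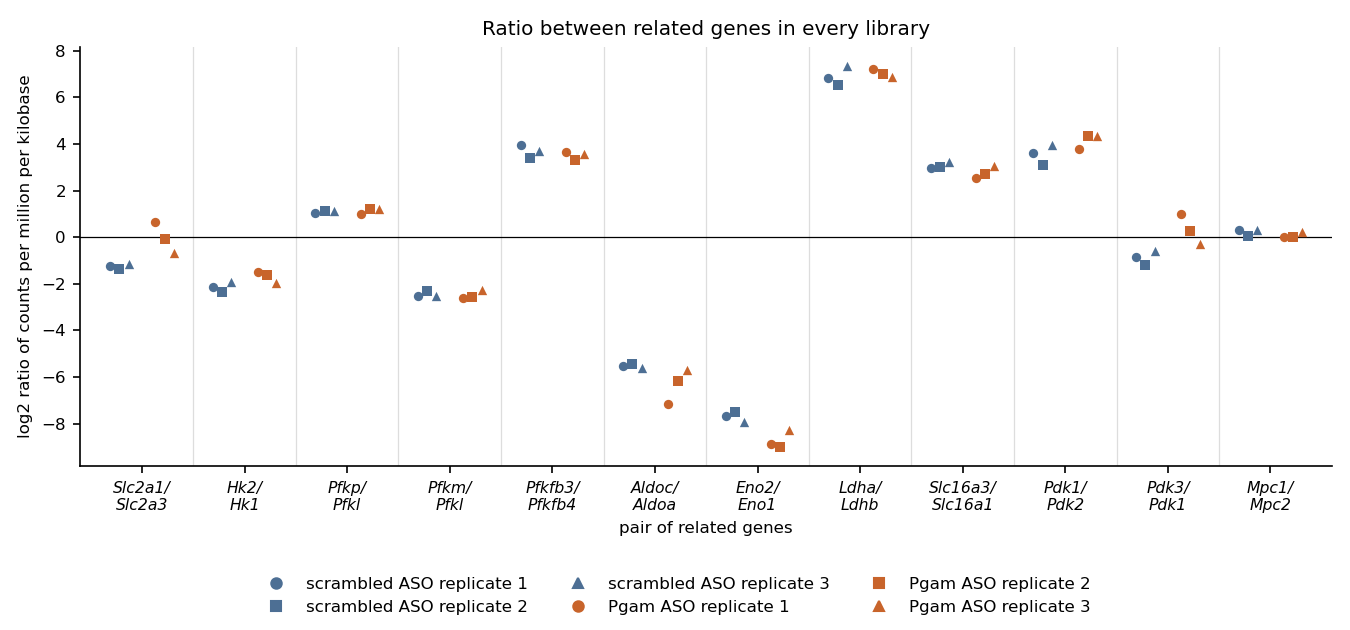
Log2 ratio of CPM per kilobase between 12 pairs of related genes in each library, blue for scrambled ASO and orange for *Pgam* ASO. The colours do not overlap for 4 pairs, *Slc2a1* over *Slc2a3*, *Aldoc* over *Aldoa*, *Eno2* over *Eno1* and *Pdk3* over *Pdk1*, and in each of them replicate 3 labelled *Pgam* ASO (orange triangle) lies closest to blue.

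A wider list of 46 genes takes in the other enzymes and carriers of the path, most of them forms of liver, muscle or testis. Of these, 22 had enough counts to test and 5 passed, 3 higher and 2 lower, which is 22.7% of those tested, beside 17.2% of all tested genes. *Pgp*, whose phosphatase clears side products of glycolytic enzymes, was at 87.1, 74.5 and 98.5 CPM against 129.6, 129 and 143 CPM. Its log2 fold change of 0.63 (95% confidence interval 0.39 to 0.87, adjusted p = 0.00679) passed with every library left out in turn. *Pgm2l1*, related to the phosphoglucomutases, was at 17.3, 19.1 and 11.9 CPM against 7.02, 8.28 and 10.9 CPM, with a log2 fold change of -0.88 (95% confidence interval -1.36 to -0.40, adjusted p = 0.0246). The remaining 3 act on pyruvate dehydrogenase. *Pdhx*, a binding protein of the complex, was higher (log2 fold change 0.40, adjusted p = 0.0374), and *Pdp2*, a phosphatase that switches it on, too (log2 fold change 0.42, adjusted p = 0.0461). *Pdpr*, a regulatory subunit of pyruvate dehydrogenase phosphatase, was lower (log2 fold change -0.41, adjusted p = 0.0374). Apart from *Pgp*, each of these calls was lost without replicates 1 or 2 of either label, with adjusted p from 0.0647 to 0.189. That of *Pdp2* was also lost with limma-voom (adjusted p = 0.0521) and with library size alone (adjusted p = 0.0529).

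Regulators of glucose use made a list of 18, of which 17 were tested and 4 passed, 2 higher and 2 lower, or 23.5%, beside the same 17.2%. Neither share is a result about its list. *Txnip* and *Arrdc4* belong to the arrestin family that lowers glucose uptake, and both are known to be switched on by the glucose-sensing factors MondoA and MLX. *Txnip* stood at 459, 690.5 and 366 CPM under scrambled ASO and at 101, 146 and 226 CPM under *Pgam* ASO, with no overlap and replicate 3 labelled *Pgam* ASO closest to the other label. The log2 fold change of *Txnip* was -1.68 (95% confidence interval -2.59 to -0.76, adjusted p = 0.0347), and it lost its call without replicates 1 or 2 of either label (adjusted p from 0.0605 to 0.126) and with the filter of at least 1 count over the 6 libraries (adjusted p = 0.112). *Arrdc4* was at 12.8, 17.8 and 12.1 CPM against 4.16, 4.11 and 6.51 CPM. Its log2 fold change of -1.53 (95% confidence interval -2.04 to -1.01, adjusted p = 0.00397) passed with every library left out in turn. *Mlx* itself, partner of MondoA, was higher (log2 fold change 0.46, adjusted p = 0.0252), a call lost without replicates 1 or 2 of either label (adjusted p from 0.0611 to 0.115), and it shares 17.1% of its stretches with *Psmc3ip*. *Akt1*, a kinase downstream of costimulation and IL-2, was higher (log2 fold change 0.36, adjusted p = 0.0225), with the call lost without replicate 1 labelled scrambled ASO or replicates 1 or 2 labelled *Pgam* ASO (adjusted p from 0.0733 to 0.0927). The other 13 tested regulators, among them *Hif1a* with 0.19 (adjusted p = 0.188) and *Myc* with -0.13 (adjusted p = 0.406), did not pass. With a library left out *Myc* ran from -0.22 to -0.060. *Hif1a* and *Myc*, the best known activators of glycolysis genes in T cells, are named after their values were seen.

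**Figure D5:**
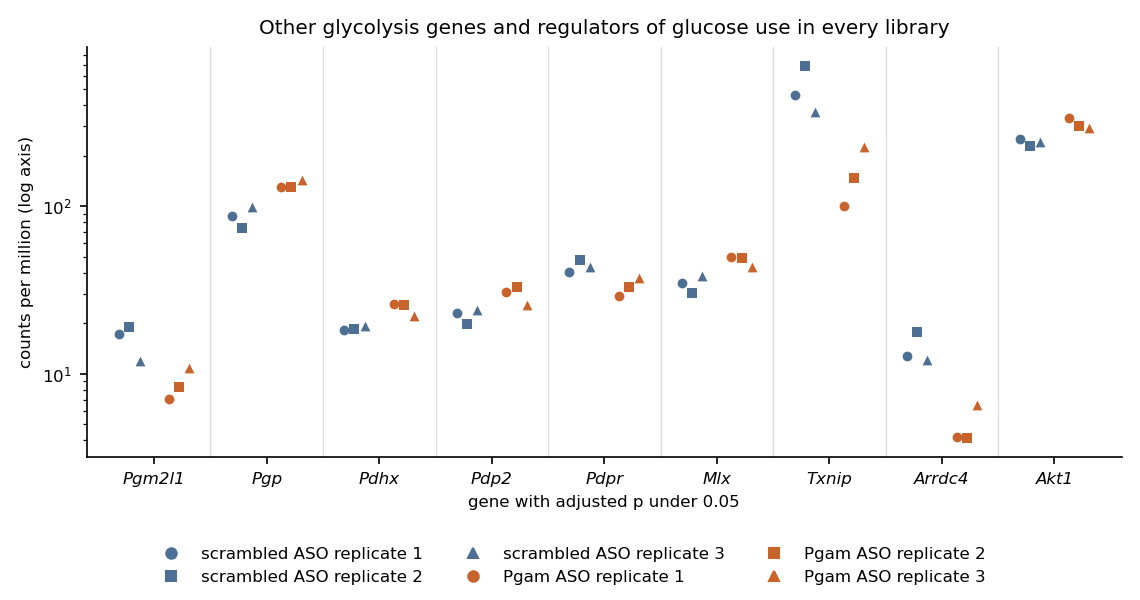
Level in CPM (log axis) in each library for the 5 other genes of the path and the 4 regulators with an adjusted p under 0.05, blue for scrambled ASO and orange for *Pgam* ASO. The colours separate in all 9 genes, with *Txnip* and *Arrdc4* lower and *Pgp* higher in orange.

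Promoters were read for a feature that the choice of genes did not use. HIF1 is known to bind the letters ACGTG, and MYC, MondoA and MLX bind CACGTG. Both were searched on both strands in the 250 bases before each gene start (RefSeq, mouse build GRCm38.p6). CACGTG reads the same on both strands and holds ACGTG on each of them, so its matches are counted under both motifs. RefSeq gave a promoter for 34 of the 36 genes, with *Slc2a3* and *Pdp1* missing. ACGTG was found in 15 of these 34 genes (44.1%) and CACGTG in 6 (17.6%), namely *Pfkm*, *Pfkfb3*, *Gpd1l*, *Ldha*, *Slc16a1* and *Pdk2*. Over all 27025 genes in the promoter table the shares were 18.5% and 6.86%, and over the 10014 of them that were tested 25.3% and 9.84%. Counted by window, 18 and 6 of the 50 windows of the listed genes held a match, beside 21.7% and 8.22% of the 12747 windows of tested genes and 16.6% and 6.02% of all 32851. The split by the PGAM step was 8 of 18 above and 7 of 16 below for ACGTG. A match is a description, not a site or a cause. Genes with several starts have more windows and so more chances of a match.

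The promoters of *Tigar* (chr6:127109553-127109802, minus strand) and *Pdk2* (chr11:95041372-95041621, minus strand) are shown because these had the largest change above and below the PGAM step among the genes that passed. That of *Slc16a1* (chr3:104638414-104638663, plus strand) is added, a choice made after its values were seen, since it also passed and holds CACGTG. Each reads 5′ to 3′ toward the gene start on the gene's strand, and capitals mark matches. For *Pdk2*, which has 2 starts in RefSeq, the outermost was used.
Tigar: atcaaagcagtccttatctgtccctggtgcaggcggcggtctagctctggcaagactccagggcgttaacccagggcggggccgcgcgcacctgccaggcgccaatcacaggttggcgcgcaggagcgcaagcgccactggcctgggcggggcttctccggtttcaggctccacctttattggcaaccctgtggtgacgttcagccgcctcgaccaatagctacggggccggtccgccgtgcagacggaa
Pdk2: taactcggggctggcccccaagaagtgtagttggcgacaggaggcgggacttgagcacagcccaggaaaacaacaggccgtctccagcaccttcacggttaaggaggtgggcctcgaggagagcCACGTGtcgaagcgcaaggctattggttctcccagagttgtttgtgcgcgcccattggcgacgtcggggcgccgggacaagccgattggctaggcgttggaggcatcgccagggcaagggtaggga
Slc16a1: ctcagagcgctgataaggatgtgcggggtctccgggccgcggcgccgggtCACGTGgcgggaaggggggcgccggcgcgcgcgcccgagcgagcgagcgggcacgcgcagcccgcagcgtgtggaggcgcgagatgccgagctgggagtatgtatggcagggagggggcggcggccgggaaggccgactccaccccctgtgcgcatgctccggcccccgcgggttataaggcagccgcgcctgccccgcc

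The match in *Pdk2* begins 126 bases before the start and that in *Slc16a1* 200 bases before it. Among the listed genes with CACGTG, *Pdk2* was lower and *Slc16a1* higher, while *Pfkm*, *Pfkfb3*, *Gpd1l* and *Ldha* did not pass in the main fit. Whether the motif has a part in these values was not tested. In *Tigar*, *Slc2a6* and *Eno2* neither motif is present in this window, which says only that these letters are absent there. The bases G and C made up 65.6% of the window of *Tigar*, 62.4% of that of *Pdk2* and 76.4% of that of *Slc16a1*.

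Position was also not used in the choice. Chromosome 6 holds 7 of the 36 genes, *Hk2*, *Slc2a3*, *Eno2*, *Tpi1*, *Gapdh*, *Tigar* and *Ldhb*. *Eno2* ends at 124769673 and *Tpi1* starts at 124810586, so they are close neighbours, and *Gapdh* starts at 125161715. Their log2 fold changes were -0.77 for *Eno2*, 0.15 for *Tpi1* and -0.037 for *Gapdh*, and only *Eno2* passed. *Tigar*, further on, passed at 0.69. Differences between these genes were not tested.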

How the data were processed

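RNA was sequenced from 6 cultures, 3 labelled scrambled ASO and 3 labelled *Pgam* ASO, at depths of 15860476 to 18032805 counts. The values are estimated counts, which the authors deposited as 1 table of Ensembl genes by library, rounded and without normalization. The submitters' processing notes name kallisto and GRCm38, without versions. Of 56748 gene IDs, 52073 had a symbol and 52125 were in GENCODE M21, from which positions, transcript lengths and shared 31-base stretches were taken. *Aldoa* has more than 1 ID, and that with the most counts was used. No column was left out.

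Genes were kept by filterByExpr (14936) and scaled by TMM in edgeR 4.0.16 under R 4.3.3. The test between labels was the robust quasi-likelihood test of edgeR, two-sided, with p adjusted by Benjamini-Hochberg over all tested genes and a threshold of 0.05. Confidence intervals come from the fitted standard error. Levels per kilobase use the mean length of the coding transcripts. Ratios between related genes were tested with an exact permutation test in scipy 1.17.1 under Python 3.11.15. Sharing genes were summed where they hold at least 10% of a gene's stretches, and IDs outside GENCODE M21 could not be searched, so shares held by copies cover the genes in it only. The procedure was tested on simulated data. Alternatives were DESeq2 1.42.0, limma-voom in limma 3.58.1, RLE factors, library size alone, ribosomal protein and mitochondrially encoded genes left out, filters of at least 1 count over the 6 libraries or 10 counts in each, a block by replicate number, summing with sharing genes, and each library left out.

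The members and lists were chosen with earlier results of these data known. By the rule for named genes, values in every library are given for genes of the list that passed, for the most abundant gene of each step per kilobase and for those sharing stretches with a copy, and genes of the other lists are named where they passed.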

Additional observations from a re-analysis of the deposited data

How the results depend on the processing

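Over the other settings, 297 of 324 log2 fold changes of the 36 genes kept their direction and their side of the threshold, and 165 of 216 did with a library left out. All genes called ran from 391 to 3484 with libraries left out, glycolysis genes called higher from 0 to 5 and called lower from 0 to 6, the median log2 fold change from -0.026 to 0.16 above the PGAM step and from -0.0055 to 0.16 below it, and pairs without overlap from 4 to 8; fewer libraries were tested there. Glycolysis genes called higher numbered 5 with DESeq2 and 5 with at least 1 count over the 6 libraries, and those called lower 4 with limma-voom. In either direction, 19.4% of glycolysis genes passed with DESeq2, 19.4% with at least 1 count and 22.2% with limma-voom. Beside these, 21.5%, 13.1% and 16.9% of all tested genes passed in the same fits. With replicate number as a block, 1235 genes (8.27%) passed in all, beside 8.33% of glycolysis genes. There 1 glycolysis gene was called higher, with *Slc2a6* (adjusted p = 0.087) and *Slc16a1* (adjusted p = 0.0747) lost. Of the genes called in the other lists, the block lost *Pgm2l1*, *Pdhx*, *Pdp2*, *Pdpr*, *Mlx*, *Txnip* and *Akt1* (adjusted p from 0.0528 to 0.101). The block was kept out of the main test because equal numbers did not pair, with correlations of deviations across genes of 0.079, -0.039 and -0.28.

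Changes of sign were seen only in genes near no change or in *Gapdh*, and the cause was not tested. *Pgk1* had a log2 fold change of 0.0014 with DESeq2, 0.0015 with RLE factors and 0.0070 with at least 1 count. *Hk1* had -0.0034 with limma-voom, -0.031 with library size alone, -0.0096 with at least 10 counts in every library and -0.0038 with the replicate block. *Gapdh* had 0.54 with limma-voom, 0.41 with the replicate block and 0.0033 summed with its copies. *Ldhb* had -0.0040 with limma-voom, -0.034 with library size alone, -0.011 with at least 10 counts in every library, -0.00065 with the replicate block and -0.0099 summed with its copy. With libraries left out, log2 fold changes that crossed 0 ran from -0.023 to 0.18 for *Slc2a1*, -0.094 to 0.075 for *Hk1*, -0.026 to 0.22 for *Pfkm*, -0.21 to 0.075 for *Pfkfb4*, -0.13 to 0.040 for *Aldoa*, -0.54 to 1.15 for *Gapdh*, -0.11 to 0.11 for *Pgk1*, -0.14 to 0.12 for *Eno3*, -0.063 to 0.15 for *Pkm*, -0.0055 to 0.25 for *Ldha*, -0.087 to 0.098 for *Ldhb*, -0.034 to 0.20 for *Slc16a3* and -0.055 to 0.13 for *Mpc1*.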
